A study of Mus musculus with 24 samples.

Results

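The TGF-beta, Nodal and BMP pathway was followed here through 36 genes, chosen by name as its ligands, receptors, SMAD proteins, inhibitors and direct targets. These 36 were read from the 55487 genes counted in each library by matching the Ensembl identifiers to GENCODE M21, which uses the mouse build GRCm38. The cells were KH2 mouse embryonic stem cells, profiled by RNA-seq, with titles that carry TRE_DUX, a transgene for the transcription factor DUX that doxycycline (DOX) switches on. DUX drives stem cells toward the state of the early cleavage embryo. The 24 libraries form 12 groups of 2, each line without DOX and after 16 h of DOX. One set of 8 libraries, called plain here, holds WT and DUXBL-KO, and a second set of 16, called pLV2 after the titles, holds TRIM33-KO, TRIM24-KO and a pair of WT lines, WT pLV2 line 1 and WT pLV2 line 2. In the pLV2 set the treatment tag of 8 libraries goes against the title, and the titles were followed. All 12 groups carry the transgene, so no group lacks it. The sources used here do not say what pLV2 is, how the genes were disrupted, how many clones stand behind a line, or which WT pLV2 line is the parent of which knockout. Culture was on gelatin or on mouse embryonic fibroblast feeders, per the labels' protocols, and the labels do not assign either to single libraries. They also do not say that the 2 libraries of a group came from separate cultures, so p-values measure the spread between these libraries, which may be technical.

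Ligands of this family bind pairs of type I and type II receptors, and the active type I receptor phosphorylates a receptor-regulated SMAD. SMAD2 and SMAD3 carry TGF-beta, Nodal and activin signals, SMAD1, SMAD5 and SMAD9 carry BMP signals, and both branches join SMAD4 before entering the nucleus. In mouse embryonic stem cells BMP4 acting through the ID proteins helps to hold back differentiation, while Nodal and its antagonists LEFTY1 and LEFTY2 are themselves made by these cells. TRIM33 binds SMAD proteins and has been described both as a cofactor of SMAD2 and SMAD3 and as an enzyme acting on SMAD4, and TRIM24 is its close relative.

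Gene counts ran from 11784696 to 19136869 per library. The gene CT010467.1 took 30.4% of the gene counts in TRIM24-KO with DOX replicate 2 and 12.9% in TRIM33-KO with DOX replicate 2, and the counts that moved by over 1.5 times without these libraries are given below. Dux, named Duxf3 in the annotation, had 0 to 2 counts in the libraries titled without DOX and 20 to 110 in those titled with DOX. Its mean with DOX, in CPM (counts scaled to library size), was 7.79 in WT pLV2 line 1 and 4.20 in line 2. It was 3.10 in TRIM24-KO, 6.40 in TRIM33-KO, 1.24 in plain WT and 3.89 in DUXBL-KO. By edgeR, TRIM24-KO with DOX was below the mean of both WT pLV2 lines (log2 -0.88, adjusted p = 0.00797). Line 2 was below line 1 (-0.89, adjusted p = 0.00758). The part of these Dux levels in the DOX results was not tested. Trim33 was at 20.3 and 21.4 CPM in TRIM33-KO without DOX and at 115.6 to 140.1 CPM in the WT pLV2 lines without DOX. Trim24 in the libraries labelled TRIM24-KO, at 137 and 123 CPM without DOX, lay above line 1 (100.4 and 94.7 CPM) and below line 2 (196 and 166 CPM), and differed from the mean of both lines by -0.03 ± 0.08 on the log2 scale (edgeR, adjusted p = 0.825). Duxbl1 was at 0.86 and 0.32 CPM in the libraries labelled DUXBL-KO without DOX and at 1.86 and 0.36 CPM in plain WT. With DOX it was at 11.1 and 4.98 CPM in DUXBL-KO and at 8.35 and 3.23 CPM in plain WT (0.47 ± 0.69, adjusted p = 0.854). A count over the whole gene does not see a small deletion, so neither label is checked by these counts. Pluripotency markers summed to between 4222 and 6089 CPM in the 24 libraries, so the stem cell label has its markers in each of them.

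Of the 36 genes, 35 passed the filter on low counts in the pLV2 set and 34 in the plain set. Nog, the secreted BMP antagonist noggin, passed in neither, with 0 to 9 counts a library, and Smad9 did not pass in the plain set. Levels between genes are given as CPM per kilobase of exon, as the median over the 24 libraries. Lefty2 (30.4 CPM per kb), the inhibitory SMAD gene Smad7 (28.5 CPM per kb) and the co-repressor gene Tgif1 (24.7 CPM per kb) were highest. Nodal itself stood at 20.5 CPM per kb, Smad4 at 17.8 CPM per kb and Lefty1 at 13.3 CPM per kb. Among the ligands, Bmp4 was at 11.5 CPM per kb, Tgfb1 at 2.30 CPM per kb and Tgfb2 at 0.12 CPM per kb. The type I receptor genes Bmpr1a (11.3 CPM per kb), Acvr1b (9.65 CPM per kb), Tgfbr1 (6.11 CPM per kb) and Acvr1 (1.35 CPM per kb) were all present. The TGF-beta type II receptor gene Tgfbr2 stood near the bottom at 0.11 CPM per kb, far under the activin type II receptor gene Acvr2b at 9.74 CPM per kb. Of the receptor-regulated SMADs, Smad2 (8.07 CPM per kb) and Smad5 (5.11 CPM per kb) were above Smad1 (3.05 CPM per kb) and Smad3 (3.0 CPM per kb), and Smad9 was lowest of all members at 0.05 CPM per kb. Smad4 lay between 15.9 and 24.6 CPM per kb over the libraries, while Id1 ran from 4.71 to 78.5 CPM per kb and Bmp4 from 4.95 to 72.5 CPM per kb. Levels were normalized apart in the plain and pLV2 sets. Lefty1 and Lefty2 share sequence, with 11.7% of the 75-base stretches of Lefty1 also found in Lefty2, so reads may have been split between them.

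In the pLV2 lines more of these genes were called lower with DOX than higher. In each comparison a gene is called when its adjusted p is under 0.05, with the adjustment made over all genes tested, and a log2 fold change is given with its standard error. Of the 35 members tested in the pLV2 set, DOX called 8 in WT pLV2 line 1 (1 up, 7 down), against 16.3% of all genes. In line 2 it called 13 (1 up, 12 down), against 26.8% of all genes, and in TRIM33-KO 16 (1 up, 15 down), against 36.5%. In TRIM24-KO it called 4 (1 up, 3 down), against 16.4%. By direction, 10% of all tested genes were called higher and 6.24% lower in line 1, and 12.7% and 14% in line 2. In TRIM33-KO 16.5% were higher and 20.1% lower, and in TRIM24-KO 11.5% and 4.94%. RLE factors, another scaling, left 1 member up in each line, with 6 down in line 1, 8 in line 2, 13 in TRIM33-KO and 6 in TRIM24-KO. With them the share of higher genes among all calls moved from 47.6% to 59.6% in line 2. The median log2 fold change of the members was -0.28 in TRIM33-KO (-0.09 for all tested genes), -0.07 in TRIM24-KO (0.00), and -0.17 in both WT pLV2 lines (-0.03 in line 1 and -0.07 in line 2). As shares, 22.9% of the members were called in line 1, 37.1% in line 2, 45.7% in TRIM33-KO and 11.4% in TRIM24-KO. These shares moved with the processing: RLE factors gave 7 called members in TRIM24-KO, DESeq2 gave 8 in line 2, and a fit of only the groups compared gave 17 in line 1 and 7 in line 2. No order of the lines, and no difference from the shares of all genes, is read from them. These are bulk libraries, in which fewer cells of a type and less RNA per cell cannot be told apart. Repeats took 7.58% to 11.8% of all counts without DOX and 10.2% to 23.0% with DOX, highest in TRIM33-KO and line 2 with DOX, and the part of this in the results was not tested. Marker lists also moved with DOX. Of 10 pluripotency genes 1 rose and 5 fell in line 2 and in TRIM33-KO, 5 fell in TRIM24-KO (3 without TRIM24-KO with DOX replicate 2), and 2 rose and 2 fell in line 1 (1 or 2 called in all without each of its libraries). Their sum went from 4830 and 4961 CPM to 4266 and 4291 CPM in line 2 and from 4890 and 5080 CPM to 4222 and 4353 CPM in TRIM33-KO (lower and higher library of each group). Of 6 fibroblast genes tested 3 rose in TRIM33-KO, 2 rose in line 1 and in TRIM24-KO, and 2 rose and 1 fell in line 2, while the sum of the list went from 157.7 and 162.4 CPM to 140.2 and 146.2 CPM in TRIM33-KO. The part of these lists in the results was not tested.

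**Figure D1:**
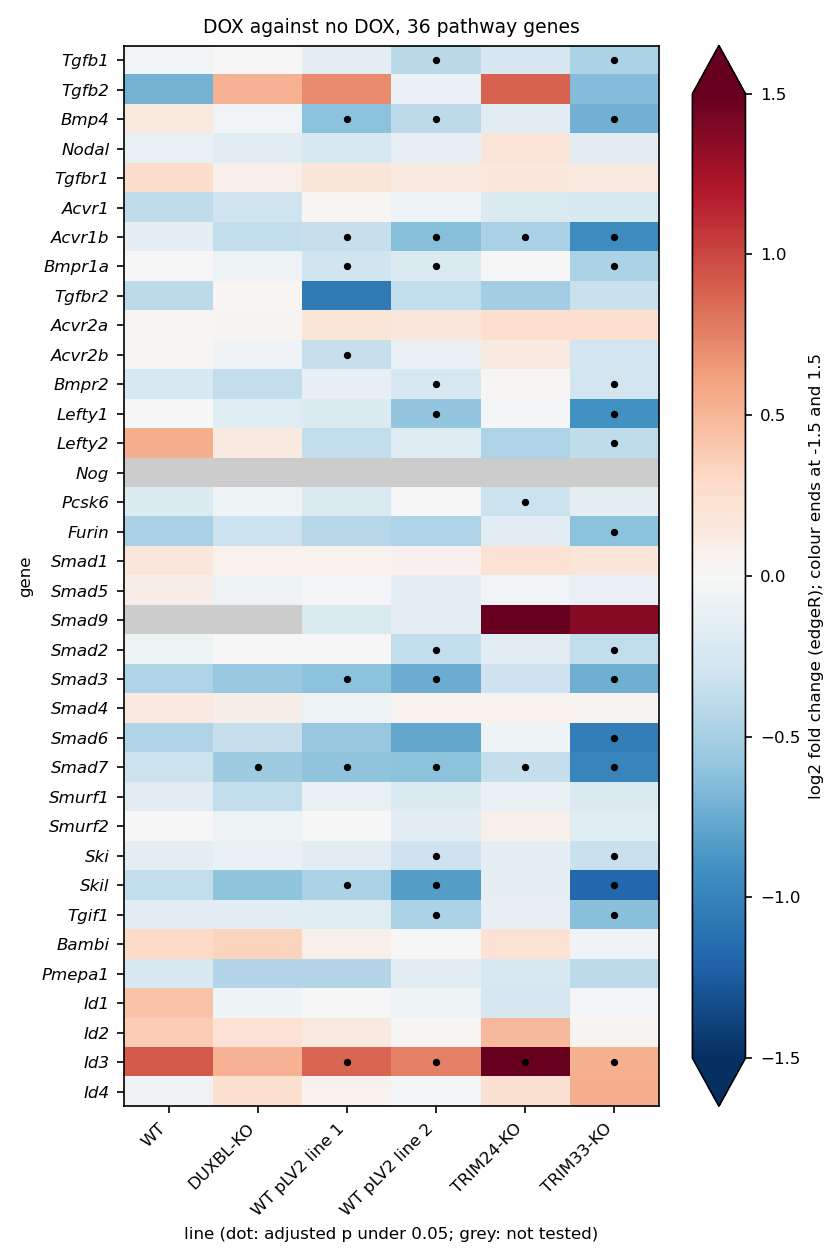
Heat map of the log2 fold change with DOX, with the 36 members as rows and the 6 lines as columns. Blue is lower and red higher with DOX, colours end at -1.5 and 1.5, dots mark an adjusted p under 0.05 and grey means not tested. Dots are mostly on blue cells, with 15 of 16 in TRIM33-KO, and Id3 is the row with dots on red in the 4 pLV2 lines.

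Smad7, which blocks the type I receptors and is itself a target of the pathway, was lower with DOX in each line. In WT pLV2 line 1 it went from 176 and 177 CPM without DOX to 119.8 and 112.5 CPM with DOX, a log2 fold change of -0.60 ± 0.07 (adjusted p = 9.99e-06). In line 2 it went from 105.0 and 101.0 CPM to 64.4 and 69.9 CPM (-0.62 ± 0.08, adjusted p = 7.87e-06). In TRIM33-KO it went from 91.6 and 87.8 CPM to 47.4 and 42.9 CPM (-0.99 ± 0.08, adjusted p = 2.84e-08). The libraries with DOX lay below those without in these lines, and TRIM33-KO with DOX held the lowest Smad7 levels of the 12 groups. In the libraries labelled TRIM24-KO, Smad7 was at 182 and 174 CPM without DOX and at 149 and 129 CPM with DOX (-0.36 ± 0.07, adjusted p = 0.00217). That call was lost without TRIM24-KO with DOX replicate 2, the library with the large share of CT010467.1, at an adjusted p of 0.0581. In DUXBL-KO Smad7 was at 181 and 167 CPM without DOX and at 129 and 112 CPM with DOX, and in plain WT at 182 and 166 CPM without DOX and at 139.5 CPM in both libraries with DOX. Groups did not overlap in either plain line. The DUXBL-KO change was called (-0.53 ± 0.10, adjusted p = 0.0284) and the plain WT value was not (-0.32 ± 0.10, adjusted p = 0.24). Without each of the 4 DUXBL-KO libraries in turn the call was lost, with adjusted p from 0.0564 to 0.165.

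Skil, at chr3:31095058-31122577 on the plus strand, encodes SnoN, a nuclear co-repressor of SMAD proteins that the pathway also induces. It was at 114 and 112 CPM in line 1 without DOX and at 84.1 and 78.3 CPM with DOX (-0.47 ± 0.08, adjusted p = 0.000507). In line 2 it was at 96.1 and 110.2 CPM without DOX and at 53.3 and 62.4 CPM with DOX (-0.83 ± 0.08, adjusted p = 6.8e-07). In TRIM33-KO it was at 118 and 120.4 CPM without DOX and at 53.3 and 52.1 CPM with DOX (-1.18 ± 0.08, adjusted p = 7.28e-09). The 2 libraries with DOX were thus below the 2 without DOX in these 3 lines. In TRIM24-KO it was at 194 and 174 CPM without DOX and at 169 and 163 CPM with DOX (-0.15 ± 0.08, adjusted p = 0.23), which was not called. In the plain set the values were -0.61 ± 0.16 in DUXBL-KO (adjusted p = 0.0886) and -0.36 ± 0.15 in WT (adjusted p = 0.458), neither called.

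Among the receptors, Acvr1b, the type I receptor ALK4 used by Nodal and activin, fell in all 4 pLV2 lines. It was at 46.8 and 41.0 CPM in TRIM33-KO without DOX and at 21.7 and 24.1 CPM with DOX (-0.94 ± 0.10, adjusted p = 1.37e-06). The log2 fold change was -0.63 ± 0.10 in line 2, -0.49 ± 0.10 in TRIM24-KO and -0.35 ± 0.09 in line 1. The line 1 call was lost on leaving out 3 of its 4 libraries in turn, with adjusted p from 0.135 to 0.196. Bmpr1a, the BMP type I receptor ALK3, fell in line 1 (-0.30 ± 0.06), line 2 (-0.22 ± 0.06) and TRIM33-KO (-0.48 ± 0.07), and was at -0.01 ± 0.06 in TRIM24-KO. The calls in lines 1 and 2 were each lost without 2 of the line's 4 libraries in turn. The type II receptor gene Bmpr2 fell in line 2 (-0.24 ± 0.08) and TRIM33-KO (-0.27 ± 0.08), and Acvr2b in line 1 (-0.34 ± 0.11). The Bmpr2 and Acvr2b calls were lost on leaving out at least 3 of the 4 libraries of the line in turn.

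Of the ligands, Bmp4 fell in line 1 from 18.2 and 17.5 CPM to 11.1 and 12.1 CPM (-0.62 ± 0.12, adjusted p = 0.00152). In TRIM33-KO it fell from 25.6 and 20.4 CPM to 13.5 and 14.6 CPM (-0.71 ± 0.12, adjusted p = 0.000134). In both lines the libraries with DOX were below those without. In line 2 the change was -0.39 ± 0.12 and lost its call without 2 of the 4 libraries, with adjusted p from 0.181 to 0.2. In the libraries labelled TRIM24-KO, where Bmp4 was far higher, it was at -0.17 ± 0.09 and not called. Tgfb1 fell in line 2 (-0.40 ± 0.14) and TRIM33-KO (-0.48 ± 0.14), and both calls were lost on leaving out at least 3 libraries of the line in turn. Nodal was not called with DOX in any line, with values from -0.24 to 0.20.

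Of the SMAD genes, Smad3 fell in line 1 (-0.61 ± 0.10), line 2 (-0.75 ± 0.10) and TRIM33-KO (-0.73 ± 0.11). In line 2 it went from 21.7 and 21.2 CPM to 12.4 and 13.2 CPM, so that both libraries with DOX were below both without. Its value was -0.31 ± 0.11 in TRIM24-KO (adjusted p = 0.0585), -0.57 ± 0.13 in DUXBL-KO (adjusted p = 0.055) and -0.46 ± 0.13 in plain WT (adjusted p = 0.173), none of them called. Smad2, its partner in the Nodal branch, fell by 0.37 on the log2 scale both in line 2 and in TRIM33-KO and was at 0.00 ± 0.06 in line 1. Smad4, which all branches share, was called in none of the 6 DOX comparisons and lay between -0.08 and 0.13. The BMP branch SMADs Smad1, Smad5 and Smad9 were called in none of them either. Smad6, the inhibitory SMAD of the BMP branch, fell in TRIM33-KO (-1.03 ± 0.36) from 2.99 and 2.84 CPM to 1.42 and 1.41 CPM, a call lost without each of the 4 libraries in turn.

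The remaining DOX calls were among inhibitors, convertases and co-repressors. Tgif1, a nuclear co-repressor, fell in line 2 (-0.47 ± 0.07) and TRIM33-KO (-0.62 ± 0.07) and was at -0.18 ± 0.06 in line 1 and -0.12 ± 0.06 in TRIM24-KO, where it was not called. Ski, the relative of Skil, fell in line 2 (-0.32 ± 0.08), a call lost without 2 of the 4 libraries, and in TRIM33-KO (-0.33 ± 0.08), a call lost without 1 of 4. Lefty1 fell in line 2 (-0.59 ± 0.21) and TRIM33-KO (-0.91 ± 0.23), though its libraries overlapped in line 2. Both Lefty1 calls were lost without 2 of the 4 libraries in turn, and in line 2 the value moved between -0.20 and -0.97. TRIM33-KO also gave calls for Lefty2 (-0.38 ± 0.14) and Furin (-0.62 ± 0.21), the latter a protease that matures these ligands, both lost without each of its 4 libraries in turn. In TRIM24-KO the related convertase gene Pcsk6 fell by 0.32 on the log2 scale, a call lost without TRIM24-KO with DOX replicate 2 at an adjusted p of 0.104.

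Id3 was the 1 member raised by DOX in the pLV2 lines. It encodes an inhibitor of DNA binding that BMP signals induce, at chr4:136143497-136145755 on the plus strand. In the libraries labelled TRIM24-KO it was at 5.78 and 7.09 CPM without DOX and at 31.8 and 26.7 CPM with DOX, a 4.56-fold rise (2.19 ± 0.17, adjusted p = 2.22e-08). In line 1 it rose from 9.69 and 9.02 CPM to 16.4 and 17.8 CPM (0.87 ± 0.17, adjusted p = 0.00125), and in line 2 from 10.2 and 7.00 CPM to 15.6 and 13.7 CPM (0.76 ± 0.17, adjusted p = 0.00255). In TRIM33-KO it rose from 10.1 and 9.81 CPM to 13.1 and 16.0 CPM (0.54 ± 0.17, adjusted p = 0.0181), a call lost without 3 of its 4 libraries in turn. Groups did not overlap in these lines, and TRIM24-KO with DOX was higher than the other pLV2 groups. In DUXBL-KO Id3 was at 30.9 and 11.5 CPM without DOX and at 38.4 and 22.3 CPM with DOX (0.52 ± 0.44, adjusted p = 0.705). These groups overlapped, though each library with DOX was above the same-numbered one without. The DUXBL-KO mean with DOX (30.3 CPM) was the highest of the 12 groups. In plain WT Id3 was at 9.79 and 7.54 CPM without DOX and at 17.1 and 15.7 CPM with DOX (0.92 ± 0.47, adjusted p = 0.578). Id1, Id2 and Id4, the other members of its family, were not called with DOX in any line.

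**Figure D2:**
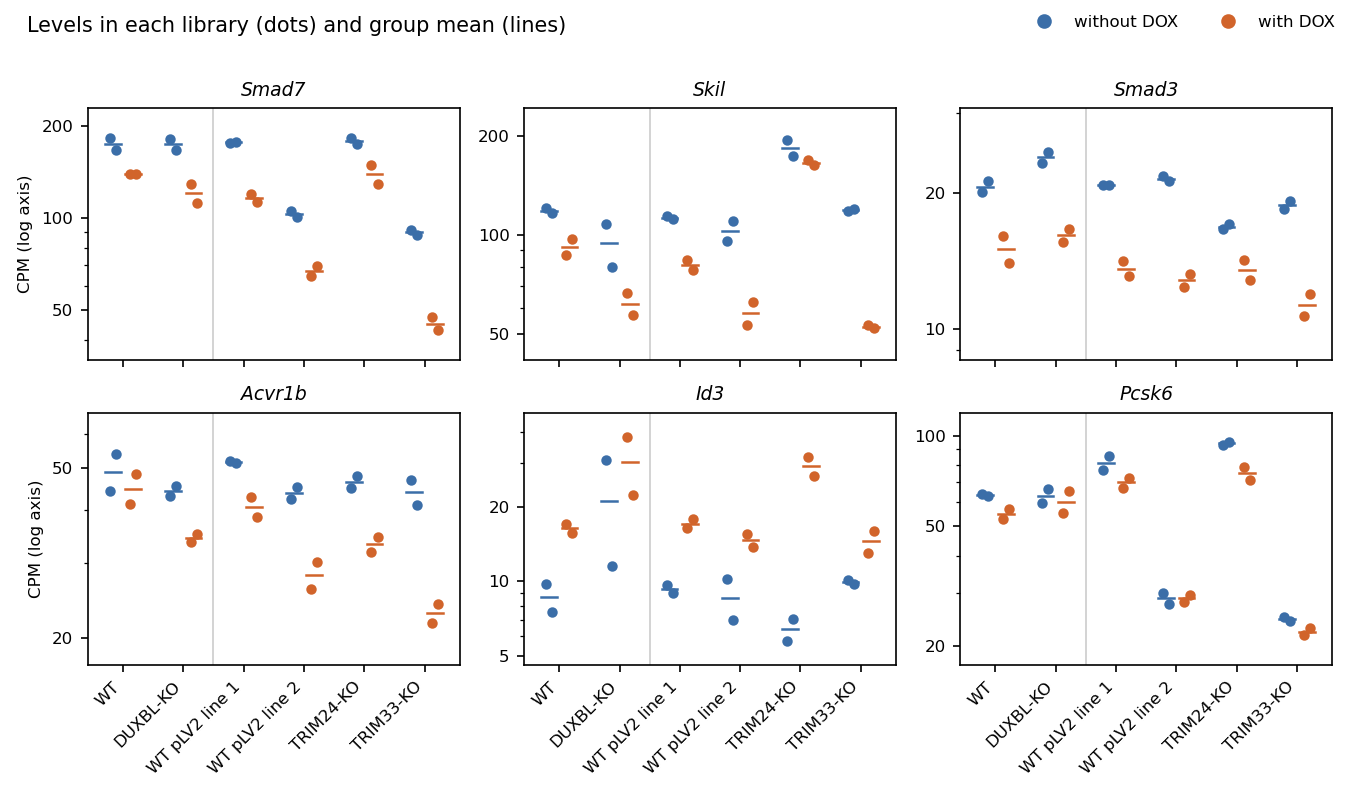
CPM on a log axis is plotted for Smad7, Skil, Smad3, Acvr1b, Id3 and Pcsk6 in the 6 lines, with dots for libraries, short lines for group means, blue without DOX and orange with DOX. The grey line splits the plain set from the pLV2 set, which were normalized apart. Smad7 and Skil sit lower with DOX in the WT pLV2 lines and TRIM33-KO, and Id3 sits highest in the pLV2 set in TRIM24-KO with DOX, at 31.8 and 26.7 CPM.

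With DOX in plain WT none of 34 members passed edgeR's test and 4 had an unadjusted p under 0.05, against 2.93% of all genes called. Those 4 were Smad3, Smad7, Skil and Lefty2. DESeq2 also called 0. In DUXBL-KO 1 member, Smad7, was called and 7 had an unadjusted p under 0.05, against 4.91% of all genes, while DESeq2 called 3. These counts moved with the model: with the replicate number as a block 1 member was called in WT and 6 in DUXBL-KO, and with no filter on low counts 2 in each. Replicates differed more in the plain set, with a coefficient of variation of 17.8%, against 8.55% in the other set. The median log2 fold change of the members was -0.06 in WT and -0.07 in DUXBL-KO, beside -0.01 for all tested genes in each.

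Leaving out single libraries changed how many members were called with DOX. In line 1 the count went from 8 to 5 without line 1 without DOX replicate 2, and in line 2 from 13 to 7 without line 2 with DOX replicate 1. In TRIM33-KO the count of 16 became 9 without TRIM33-KO with DOX replicate 1, and 10 without the other replicate with DOX or without TRIM33-KO without DOX replicate 2. In TRIM24-KO the count of 4 became 2, Acvr1b and Id3, without TRIM24-KO with DOX replicate 2. Under every alternative, 5 of the 8 calls were kept in line 1 (Bmp4, Smad3, Smad7, Skil and Id3) and 7 of the 13 in line 2 (Acvr1b, Smad2, Smad3, Smad7, Skil, Tgif1 and Id3). In TRIM33-KO 8 of the 16 were kept (Bmp4, Acvr1b, Bmpr1a, Smad2, Smad3, Smad7, Skil and Tgif1).

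The difference in DOX effect between a knockout and WT was tested as an interaction, against the mean of both WT pLV2 lines. For TRIM33-KO 1 member of 35 was called, against 0.575% of all genes. That member was Skil, whose DOX effect was more negative by 0.52 ± 0.10 on the log2 scale in TRIM33-KO (-0.52, adjusted p = 0.0258). Against line 1 alone 3 members were called, Skil (-0.70 ± 0.12), Acvr1b (-0.60 ± 0.14) and Tgif1 (-0.45 ± 0.09), against 1.61% of all genes. Against line 2 alone edgeR called 0 of all genes (0%), Skil stood at -0.34 ± 0.12 with an adjusted p of 0.988, and 4 members had an unadjusted p under 0.05. DESeq2 called 0 members there too. The Skil call was also lost without 7 single libraries, 3 of line 1 and each of the 4 TRIM33-KO libraries, with adjusted p from 0.0579 to 0.152.

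For TRIM24-KO 2 members were called, Id3 and Skil, against 0.437% of all genes. The DOX effect on Id3 was larger by 1.38 ± 0.20 on the log2 scale in TRIM24-KO (adjusted p = 0.0056). With a single WT line as reference it was 1.32 ± 0.24 for line 1, at an adjusted p of 0.0269, and 1.43 ± 0.24 for line 2, at 0.0107. Of the alternatives run, the call was lost in 1, without TRIM24-KO without DOX replicate 1, at an adjusted p of 0.0551. TRIM24-KO without DOX held the lowest mean Id3 level of the 12 groups (6.43 CPM). For Skil the DOX effect was less negative by 0.50 ± 0.10 in TRIM24-KO (adjusted p = 0.0359), and stood at 0.32 ± 0.11 with line 1 as the single reference, at an adjusted p of 0.491, and at 0.68 ± 0.11 with line 2, at 0.0123. The Skil call was lost without 10 of the 12 libraries in turn, the exceptions being line 2 without DOX replicate 1 and line 2 with DOX replicate 2, with adjusted p from 0.0504 to 0.445. These interactions share the WT libraries. For DUXBL-KO edgeR called 0 of all genes (0%), no member had an unadjusted p under 0.05, and DESeq2 called 0 members. The DOX effects of the 2 WT pLV2 lines were not tested against each other.

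TRIM33-KO was next compared with WT. TRIM33 is described as acting on SMAD proteins, and RNA counts do not measure those proteins or their activity. Against the mean of both WT pLV2 lines, TRIM33-KO without DOX gave 13 called members of 35 (4 up, 9 down), against 23.9% of all genes. With DOX it gave 14 (2 up, 12 down), against 26.8%. The median log2 fold change of the members was -0.01 without DOX and -0.17 with DOX, beside 0.00 and -0.01 for all tested genes. The calls depended on which WT line was the reference. Against line 1 alone 20 members were called without DOX (8 up, 12 down), against 40.9% of all genes, and 21 with DOX (4 up, 17 down), against 43.1%. Against line 2 alone edgeR called 0 members without DOX, against 1.52% of all genes. There 7 had an unadjusted p under 0.05 and DESeq2 called 2. With DOX it called 3, against 3.58%, and DESeq2 called 2. Called the same way against each line were 0 members without DOX, against 0.918% of all genes, and 3 with DOX, against 2.62%.

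**Figure D3:**
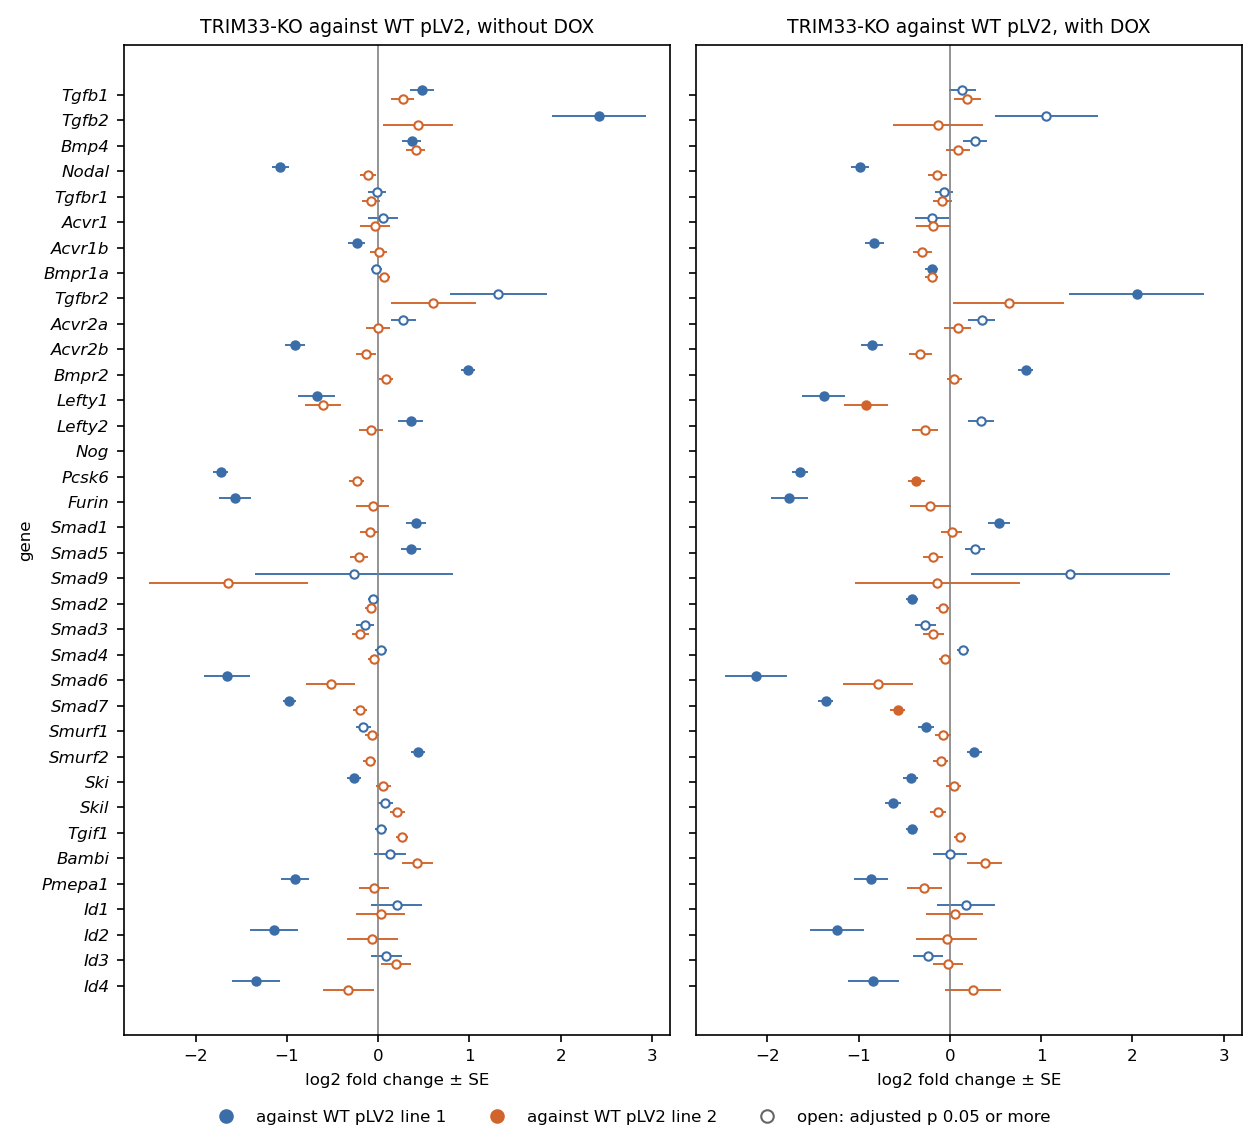
The log2 fold change of each member in TRIM33-KO is plotted with its standard error, without DOX in one panel and with DOX in the other. Blue is against WT pLV2 line 1 and orange against line 2, and open points have an adjusted p of 0.05 or more. Filled points number 20 without and 21 with DOX against line 1, and 0 and 3 against line 2, the 3 being Smad7, Pcsk6 and Lefty1.

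The 3 members called against both lines were Smad7, Pcsk6 and Lefty1, all lower in TRIM33-KO with DOX. Smad7 was at 47.4 and 42.9 CPM there, at 64.4 and 69.9 CPM in line 2 and at 119.8 and 112.5 CPM in line 1, so both knockout libraries were below the 4 WT libraries. The log2 fold change was -0.57 ± 0.08 against line 2 (adjusted p = 0.000825) and -1.36 ± 0.08 against line 1. Pcsk6, at chr7:65861734-66050386 on the plus strand, was at 21.7 and 23.0 CPM in TRIM33-KO with DOX, at 28.1 and 29.5 CPM in line 2 and at 67.2 and 72.6 CPM in line 1. Its difference from line 2 was -0.37 ± 0.09 (adjusted p = 0.0385) and from line 1 -1.65 ± 0.09. Lefty1, at chr1:180935022-180938400, was at 10.6 and 12.4 CPM in TRIM33-KO with DOX, at 16.7 and 26.6 CPM in line 2 and at 30.3 and 29.5 CPM in line 1. It was lower by 0.92 ± 0.24 than in line 2 (-0.92, adjusted p = 0.0439) and by 1.38 ± 0.23 than in line 1 (-1.38). For each of the 3 genes both TRIM33-KO libraries were below the 4 WT libraries. Their calls against the mean of both lines with DOX were kept under every alternative, including without TRIM33-KO with DOX replicate 2. Those alternatives include line 2 alone, by which the 3 genes were picked. Fits without single libraries are given here for the mean of both lines only. Against line 2 alone DESeq2 called 2 members with DOX, so the 3 calls there are less secure.

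Without DOX none of the 13 calls held against line 2 alone. Nodal was at 28.6 and 28.4 CPM in TRIM33-KO, at 30.8 CPM in both line 2 libraries and at 63.1 and 56.7 CPM in line 1, and its value against the mean of both lines was -0.59 ± 0.08. Furin was at 13.6 and 13.2 CPM in TRIM33-KO, at 11.1 and 17.1 CPM in line 2 and at 40.9 and 38.5 CPM in line 1 (-0.81 ± 0.16). Bmpr2 was at 79.7 and 78.6 CPM in TRIM33-KO, at 78.7 and 70.6 CPM in line 2 and at 40.5 and 39.6 CPM in line 1 (0.53 ± 0.06). In each case the TRIM33-KO libraries lay beside those of line 2 and apart from line 1. Losing the call did not mean a smaller value in every case. Against line 2 alone Bmp4 was at 0.41 ± 0.10 (adjusted p = 0.0621) and Lefty1 at -0.60 ± 0.20 (adjusted p = 0.192), about as far from 0 as against the mean of both lines, and Tgfb1 was at 0.27 ± 0.13. The other 10 were closer to 0 by over 1.5 times. The other calls without DOX were Tgfb1 (0.37), Tgfb2 (1.43) and Bmp4 (0.39) upward, and Acvr2b (-0.52), Lefty1 (-0.64), Pcsk6 (-0.98), Smad6 (-1.09), Smad7 (-0.59), Pmepa1 (-0.48) and Id4 (-0.83) downward. Of these, Lefty1 and Pmepa1 lost their call without 4 of the 6 libraries in turn, Tgfb1 and Id4 without 3, and Tgfb2 and Bmp4 without 1. Pmepa1 encodes a membrane protein that holds SMAD2 and SMAD3 from the receptor. With DOX the other calls were Nodal (-0.56), Acvr1b (-0.57), Bmpr1a (-0.20), Acvr2b (-0.59), Furin (-0.99), Smad2 (-0.25), Smad6 (-1.46), Skil (-0.38) and Pmepa1 (-0.57) downward, and Bmpr2 (0.44) and Smad1 (0.28) upward. Smad1 lost its call without 5 of the 6 libraries in turn, Bmpr1a and Pmepa1 without 4, and Smad2 without TRIM33-KO with DOX replicate 2, at an adjusted p of 0.0622. Against line 2 alone these 11 calls with DOX were lost. Bmpr1a was there at -0.20 (adjusted p = 0.131), as far from 0 as against the mean of both lines, and the other 10 were closer to 0 by over 1.5 times, among them Nodal (-0.137), Furin (-0.217), Skil (-0.134) and Smad6 (-0.787). Smad4 encodes a protein described as a substrate of TRIM33. Its RNA was at 65.1 and 64.3 CPM in TRIM33-KO without DOX and at 60.7 to 67.8 CPM in the WT pLV2 lines. The log2 fold change was -0.01 ± 0.05 and the groups overlapped, while the protein was not measured. Trim24 was higher in TRIM33-KO by 0.84 ± 0.08 on the log2 scale against the mean of both lines, and was itself higher in line 2 than in line 1 by 0.89 ± 0.10.

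The fibroblast marker list moved the same way as the line. Its 12 genes summed to 86.9 and 93.4 CPM in line 1 without DOX, 152 and 156 CPM in line 2 and 158 and 162 CPM in TRIM33-KO. Of 6 genes tested, 6 were higher in line 2 than in line 1 without DOX, and 6 were higher in TRIM33-KO than in the mean of both lines, with 4 of 6 higher with DOX. Vim made up most of the sum, while Postn, Lum, Dcn and Col3a1 were at or near 0 in these groups. The 6 calls in TRIM33-KO without DOX became 1 and 2 without either TRIM33-KO library. The 5 primed epiblast genes summed to 297.5 and 292.9 CPM in line 1 without DOX, to 156.9 and 180.3 CPM in line 2 and to 200.2 and 198.6 CPM in TRIM33-KO. Of 10 pluripotency genes, 2 were higher and 3 lower in TRIM33-KO than in the mean of both lines without DOX, and 2 were higher and 6 lower with DOX, where 1 and 3 were called without TRIM33-KO with DOX replicate 2. In line 2 against line 1, 3 of the 10 were higher and 5 lower without DOX, and 2 higher and 7 lower with DOX. The part of these lists in the results was not tested.

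The 2 WT pLV2 lines also differed from each other. Line 2 against line 1 gave 18 called members without DOX (6 up, 12 down), against 38.3% of all genes, and 20 with DOX (6 up, 14 down), against 40.1%. The median over the members was -0.07 without DOX and -0.19 with DOX, beside 0.00 and -0.03 for all tested genes. Both convertases were lower in line 2. Pcsk6 was at 30.1 and 27.6 CPM in line 2 without DOX and at 76.7 and 85.9 CPM in line 1 (-1.49 ± 0.08, adjusted p = 1.44e-09), and Furin differed by -1.51 ± 0.17. Among ligands Nodal was lower in line 2 (-0.96 ± 0.09) and Tgfb2 higher (1.98 ± 0.54), the latter at 0.86 to 1.5 CPM against 0.26 to 0.34 CPM. Among receptors Acvr2b (-0.77 ± 0.11) and Acvr1b (-0.24 ± 0.09) were lower and Bmpr2 higher (0.90 ± 0.08). The inhibitory SMAD genes Smad7 (-0.78 ± 0.07) and Smad6 (-1.14 ± 0.24) and the membrane antagonist gene Pmepa1 (-0.87 ± 0.16) were lower, as were the targets Id2 (-1.08 ± 0.26) and Id4 (-1.02 ± 0.26). The BMP branch genes Smad1 (0.50 ± 0.11) and Smad5 (0.57 ± 0.11) were higher, with Lefty2 (0.44 ± 0.14) and the ubiquitin ligase gene Smurf2 (0.53 ± 0.08). Ski (-0.32 ± 0.08) and Tgif1 (-0.23 ± 0.07) completed the 18. Acvr1b lost its call without 4 of the 4 libraries in turn, Tgif1 without 3, and Tgfb2, Lefty2, Ski, Id2 and Id4 without 2. With DOX, Nodal, Acvr1b, Acvr2b, Pcsk6, Furin, Smad6, Smad7, Ski, Tgif1, Pmepa1, Id2 and Id4 were again lower and Bmpr2, Lefty2, Smad1, Smad5 and Smurf2 again higher. Smad2 (-0.34 ± 0.06), Skil (-0.49 ± 0.08) and Smad4 (0.20 ± 0.06) were called with DOX and not without, a difference that was not tested. With DOX, Smad4 lost its call without 4 of the 4 libraries in turn, Pmepa1 without 2, and Smad5 and Id4 without 1.

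Bmp4, Id1 and Tgfbr2 were 9.2- to 10.1-fold higher in the libraries labelled TRIM24-KO than in WT without DOX. The same genes also differed between replicates of 1 line, DUXBL-KO in the plain set, with values given below. Without DOX, Bmp4 was there at 26.6 and 92.0 CPM and Tgfbr2 at 0.32 and 1.93 CPM. The joint difference of these genes is thus not particular to TRIM24-KO, and its source was not tested. Of 35 members 21 were called without DOX (12 up, 9 down), against 43.4% of all genes, and 19 with DOX (15 up, 4 down), against 40.8%. The median over the members was 0.04 without DOX and 0.18 with DOX, beside -0.02 and 0.00 for all tested genes. Called the same way against each WT pLV2 line alone were 13 members without DOX (9 up, 4 down), against 21.7% of all genes, and 14 with DOX (11 up, 3 down), against 20.0%. Of the 13, Bmp4, Id1, Id2, Tgfbr2, Tgfb1, Pmepa1, Pcsk6, Ski and Skil were higher and Lefty1, Lefty2, Smad3 and Tgfbr1 lower. With DOX, Bmpr1a, Id3 and Smad7 were among the 14 in place of Pcsk6 and Smad3.

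Bmp4, the BMP ligand, was at 163 and 160.0 CPM in TRIM24-KO without DOX, against 18.2 and 17.5 CPM in line 1 and 18.1 and 16.4 CPM in line 2, a 9.2-fold difference (3.20 ± 0.08, adjusted p = 6.45e-14). With DOX it was at 148 and 139 CPM, against 11.1 and 12.1 CPM in line 1 and 12.1 and 14.3 CPM in line 2, an 11.6-fold difference (3.54 ± 0.08). The groups were far apart in both conditions. The gene lies at chr14:46383520-46390669 on the minus strand, and 3.96% of its exon bases overlap Gm15217 on the other strand. Counts on the 2 strands cannot be told apart unless strand was used in counting, which is not given in the sources used here.

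The BMP targets of the ID family split. Id1, at chr2:152736251-152737410, was at 91.1 and 65.8 CPM in TRIM24-KO without DOX, against 7.14 and 7.47 CPM in line 1 and 10.7 and 5.46 CPM in line 2 (3.33 ± 0.19, 10.1-fold, adjusted p = 8.08e-10). Id2 was at 28.4 and 19.1 CPM, against 9.0 and 6.70 CPM in line 1 and 3.35 and 4.11 CPM in line 2 (2.14 ± 0.19, adjusted p = 1.03e-07). Both were higher in each TRIM24-KO library than in any WT library. Id3, in contrast, was at -0.48 ± 0.16 without DOX (adjusted p = 0.0188), with libraries that overlapped WT and a call lost without 3 of 6 libraries. With DOX Id3 was higher by 0.89 ± 0.13 (adjusted p = 4.12e-05). Id4 was at -0.84 ± 0.25 without DOX (adjusted p = 0.0112), again with overlap, and lost its call without 2 of 6 libraries.

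Tgfbr2 rose from a low level. It was at 8.96 and 5.46 CPM in TRIM24-KO without DOX, against 0.48 to 1.17 CPM in the 4 WT libraries (3.30 ± 0.34, 9.84-fold, adjusted p = 6.37e-07). Its type I partner gene Tgfbr1 was lower, at 21.3 and 22.9 CPM against 35.5 to 39.0 CPM (-0.76 ± 0.09, adjusted p = 3.35e-06). The TRIM24-KO libraries thus lay outside the WT range on opposite sides for the 2 TGF-beta receptors. Tgfb1, the ligand they bind, was at 23.4 and 22.5 CPM against 8.31 to 11.8 CPM (1.11 ± 0.10, adjusted p = 3.02e-07). The Nodal antagonists were both lower: Lefty1 by 1.26 ± 0.19 (-1.26), at 13.2 and 14.7 CPM against 25.5 to 40.0 CPM, and Lefty2 by 1.25 ± 0.13 (-1.25), at 44.2 and 62.0 CPM against 103 to 164 CPM. Nodal was at 44.5 and 49.1 CPM without DOX and was not called (0.12 ± 0.08), and it lay between the lines, lower than in line 1 (-0.36, adjusted p = 0.00522) and higher than in line 2 (0.60, adjusted p = 3.59e-05). The co-repressor genes Skil (0.77 ± 0.07) and Ski (0.93 ± 0.07) were higher in every TRIM24-KO library than in any WT library. So was the membrane antagonist gene Pmepa1 (1.17 ± 0.12).

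**Figure D4:**
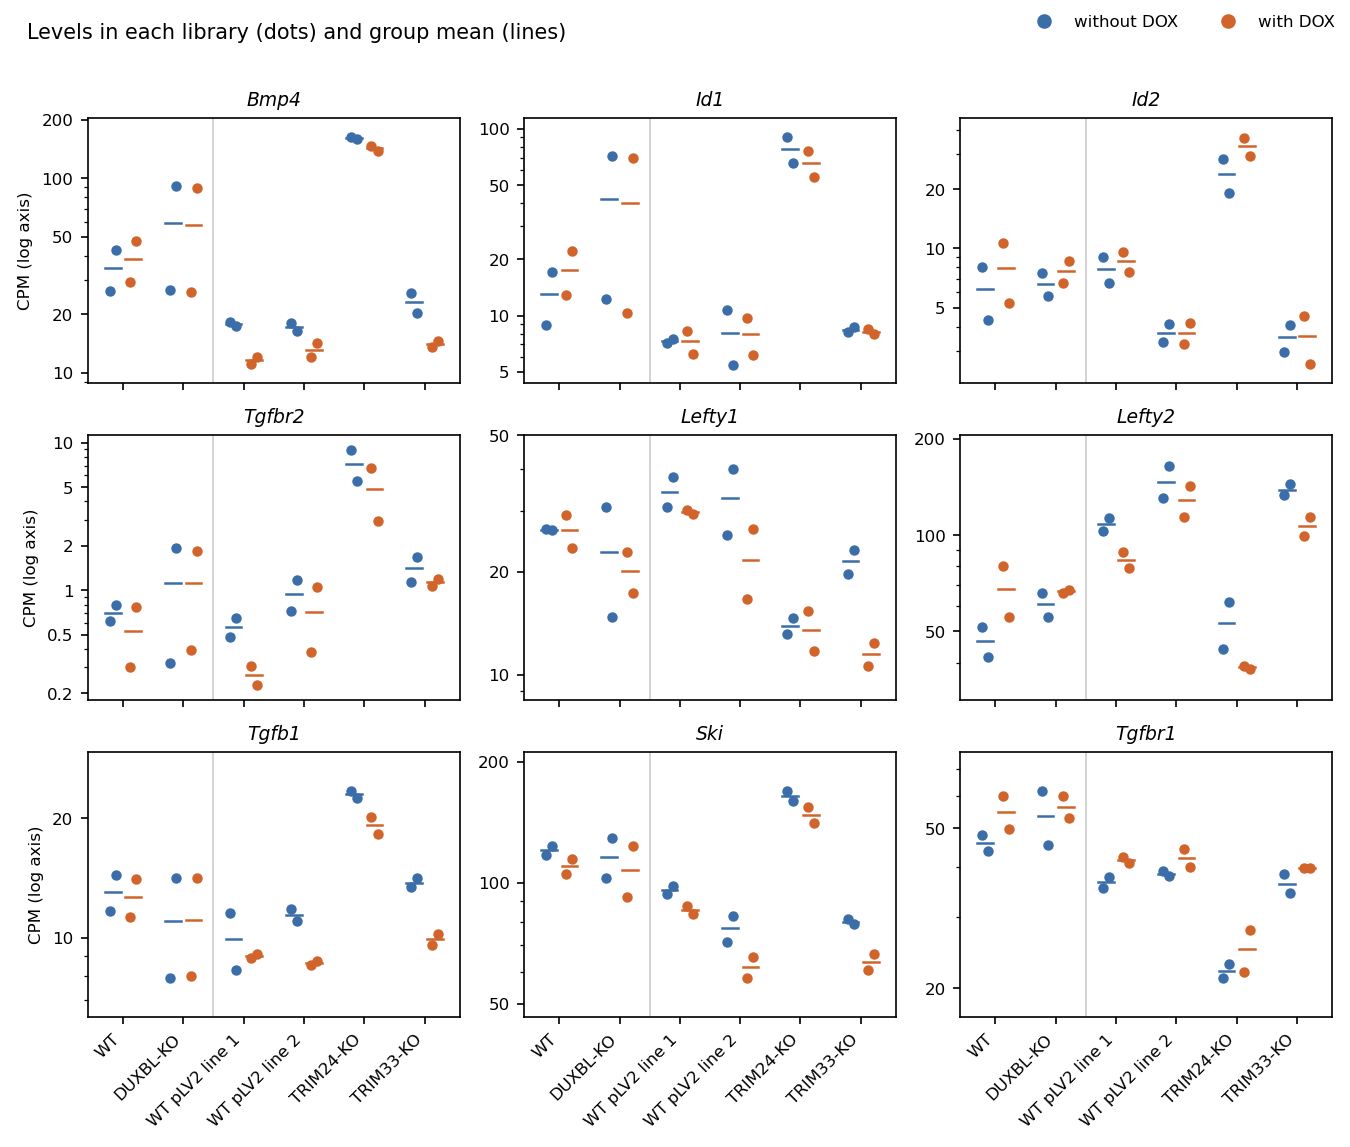
CPM on a log axis is plotted for Bmp4, Id1, Id2, Tgfbr2, Lefty1, Lefty2, Tgfb1, Ski and Tgfbr1 in each library of the 6 lines, with dots for libraries and short lines for group means, blue without DOX and orange with DOX. The grey line splits the plain set from the pLV2 set, which were normalized apart. Bmp4 sits at 139 to 163 CPM in TRIM24-KO and at 11.1 to 25.6 CPM in the other pLV2 libraries, and Id1, Id2 and Tgfbr2 are separated in the same direction within the pLV2 set.

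The remaining calls without DOX were Pcsk6 (0.96 ± 0.06), Furin (0.89 ± 0.14), Smad7 (0.40 ± 0.06) and Tgif1 (0.20 ± 0.06) upward and Smad5 (-0.45 ± 0.10), Smad3 (-0.33 ± 0.08), Smurf2 (-0.25 ± 0.07) and Smad9 downward. Smad9 had 0 and 1 counts in TRIM24-KO and 4 to 14 counts in the WT libraries, too few to give a fold, and its call was lost without each of the 6 libraries in turn. Smurf2 lost its call without 4 of the 6 libraries and Smad3 without 2. With line 1 as the single reference these calls were lost for Smurf2 (0.021), Smad7 (0.012, adjusted p = 0.936), Furin (0.136, adjusted p = 0.556), Tgif1 (0.085), Smad5 (-0.165) and Smad9. With line 2 as the single reference those of Id4 (-0.328) and Id3 (-0.431, adjusted p = 0.0546) were lost. With DOX Tgfbr2 was at 3.49, between 2.70 (without TRIM24-KO with DOX replicate 1) and 3.94 (without line 2 with DOX replicate 2) on leaving out single libraries, and at 4.19 against line 1 alone and 2.79 against line 2 alone. The remaining calls with DOX were Tgfb1 (1.12), Id1 (3.12), Id2 (2.55), Skil (1.27), Pmepa1 (1.23), Furin (1.18), Ski (1.02), Pcsk6 (0.75), Smad7 (0.66), Nodal (0.51), Tgif1 (0.40) and Bmpr1a (0.34) upward and Lefty2 (-1.42), Lefty1 (-0.89), Tgfbr1 (-0.76) and Smad5 (-0.41) downward. With line 1 as the single reference the values with DOX were 0.083 for Nodal (adjusted p = 0.534), 0.107 for Pcsk6 (adjusted p = 0.325), 0.404 for Furin (adjusted p = 0.0816), 0.136 for Tgif1 and -0.174 for Smad5, none of them called. Leaving out TRIM24-KO with DOX replicate 2, the library with the large CT010467.1 share, gave 18 called members in place of 19, with Smad5 lost at an adjusted p of 0.0653.

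Markers of other cell types moved with these differences. Of 8 primitive endoderm genes tested, 6 were higher in TRIM24-KO than in WT without DOX and 7 with DOX (5 without TRIM24-KO with DOX replicate 2). The 9 genes of that list summed to 262 and 270 CPM without DOX against 164 to 211 CPM in the WT pLV2 lines, and to 312 and 322 CPM in plain WT, which was normalized apart. Laminin gene Lama1 made up most of the sum, while Gata4 was at 4.81 and 4.71 CPM against 1.04 to 1.87 CPM and Gata6 at 3.01 and 3.49 CPM against 0.39 to 1.10 CPM. Of 6 trophoblast genes tested 5 were higher and 1 lower in both conditions, with sums of 100.2 and 92.5 CPM against 73.2 to 89.9 CPM without DOX, and Cdx2 at 0.78 and 0.52 CPM against 0 in the 4 WT libraries. Fibroblast markers summed to 49.1 and 68.8 CPM in TRIM24-KO, below both WT lines, with 3 of 6 genes lower and the others not called. The 5 primed epiblast genes summed to 367.8 and 359.7 CPM without DOX against 156.9 to 297.5 CPM in the WT pLV2 lines, with 2 of 4 tested genes higher and 2 lower in both conditions. Of 10 pluripotency genes 3 were higher and 5 lower without DOX, and 4 higher and 4 lower with DOX. The part of these cell types in the results was not tested.

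Promoter sequence is shown for 4 members that differed most in these libraries or responded most to DOX, to place 2 motifs that SMAD proteins bind: CAGAC, the SMAD box, and GGCGCC, a GC-rich element described for SMADs of the BMP branch. Each promoter window of 300 bases is from RefSeq on GRCm38.p6, written 5′ to 3′ on the gene's strand, and capitals mark a match on either strand. The outermost start of the gene in GENCODE M21 lies inside the Bmp4 and Tgfbr2 windows. For Id2 (chr12:25097140) and Id3 (chr4:136143497) it lies upstream of the window and outside it. Entries were found for 26 of the 36 members, in 34 windows. Lefty1, Lefty2, Nog, Smad2, Smad4, Smad7, Skil, Bambi, Pmepa1 and Id1 had none. The Bmp4 window, at chr14:46390620-46390919 on the minus strand, holds neither motif.
Bmp4: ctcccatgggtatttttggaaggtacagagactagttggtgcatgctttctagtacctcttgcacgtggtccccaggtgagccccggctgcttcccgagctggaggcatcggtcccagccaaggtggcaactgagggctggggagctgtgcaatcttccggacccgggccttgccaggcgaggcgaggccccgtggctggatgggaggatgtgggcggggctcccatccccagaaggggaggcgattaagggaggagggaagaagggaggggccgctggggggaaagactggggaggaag
The Tgfbr2 window, at chr9:116175314-116175613 on the minus strand, holds 1 CAGAC.
Tgfbr2: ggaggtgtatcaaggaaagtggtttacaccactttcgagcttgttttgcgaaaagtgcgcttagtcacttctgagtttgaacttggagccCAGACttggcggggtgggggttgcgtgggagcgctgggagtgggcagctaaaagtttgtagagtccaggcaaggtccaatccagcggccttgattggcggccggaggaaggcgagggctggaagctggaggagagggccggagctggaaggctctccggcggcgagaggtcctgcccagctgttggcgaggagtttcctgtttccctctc
The Id2 window, at chr12:25096043-25096342 on the minus strand, holds 1 GGCGCC.
Id2: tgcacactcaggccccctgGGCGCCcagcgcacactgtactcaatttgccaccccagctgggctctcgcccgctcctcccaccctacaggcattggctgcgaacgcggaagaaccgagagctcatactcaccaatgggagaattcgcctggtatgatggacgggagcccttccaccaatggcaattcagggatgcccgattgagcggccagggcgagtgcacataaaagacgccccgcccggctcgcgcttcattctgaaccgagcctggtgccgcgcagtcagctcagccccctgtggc
The Id3 window, at chr4:136143572-136143871 on the plus strand, holds 2 SMAD boxes, 1 on each strand.
Id3: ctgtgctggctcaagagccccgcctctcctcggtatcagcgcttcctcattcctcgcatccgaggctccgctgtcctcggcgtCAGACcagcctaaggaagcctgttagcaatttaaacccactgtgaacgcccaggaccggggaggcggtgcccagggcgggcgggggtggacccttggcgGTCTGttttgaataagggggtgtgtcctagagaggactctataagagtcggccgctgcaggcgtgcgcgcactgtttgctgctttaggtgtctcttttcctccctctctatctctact
CAGAC occurred in 14 of the 34 member windows (41.2%) and in 49.6% of all 32851 windows of this length. GGCGCC occurred in 13 of the 34 (38.2%) and in 11.9% of all windows. Some genes have several windows, such as Tgif1 with 5 and Smad5 with 3. All windows were used without matching for GC content, so no enrichment is read from these shares. A match is a description of the letters and not a measured binding site.

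The libraries labelled DUXBL-KO were compared with plain WT. Without DOX edgeR called 0 of 34 members and 3 had an unadjusted p under 0.05 (Tgfb2, Bmpr1a and Id3), against 0.0388% of all genes. With DOX it called 0 and 2 had an unadjusted p under 0.05 (Acvr1b and Skil), against 0.0720% of all genes, and DESeq2 called 0 members in both. With no filter on low counts 3 members were called without DOX and 4 with DOX. The median over the members was -0.01 without DOX and 0.02 with DOX, beside 0.00 and 0.02 for all tested genes. In DUXBL-KO Bmp4, Id1 and Tgfbr2 differed more between replicates than between the groups without and with DOX. Bmp4 was at 26.6 CPM in replicate 1 and 92.0 CPM in replicate 2 without DOX, and at 26.1 and 89.3 CPM with DOX (57.7 ± 44.7 CPM, SD, n = 2). Id1 was at 12.2 and 71.8 CPM without DOX and at 10.3 and 69.9 CPM with DOX. Tgfbr2 was at 0.32 and 1.93 CPM without DOX and at 0.39 and 1.86 CPM with DOX. Replicate 2 was the high one for these 3 genes in both conditions, while Id3 was higher in replicate 1, at 30.9 against 11.5 CPM without DOX. Sox7, a primitive endoderm gene, was likewise at 2.64 and 10.9 CPM without DOX, and its part was not tested.

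Other genes of the pathway came from a list of 134, written from general knowledge but with earlier results of these data known. Of these, 104 were tested in the pLV2 set and 100 in the plain set. Shares of the list stand beside those of all genes as a description, and no test is read from them. With DOX 14 rose and 31 fell in TRIM33-KO (43.3% called, against 36.5% of all genes), 12 rose and 13 fell in TRIM24-KO (24% against 16.4%), 9 rose and 29 fell in line 2 (36.5% against 26.8%), and 8 rose and 15 fell in line 1 (22.1% against 16.3%). DESeq2 called 29 of the list in TRIM33-KO in place of 45, 22 in TRIM24-KO, 28 in line 2 and 20 in line 1. In plain WT edgeR called 0, 6 had an unadjusted p under 0.05 and DESeq2 called 1. In DUXBL-KO 1 rose and 2 fell (3.0% called, against 4.91% of all genes), and without single libraries of that line 0 or 1 was called. These counts over the list were also taken without each library, an alternative chosen after seeing the data. Without TRIM24-KO with DOX replicate 2, 8 rose and 5 fell in TRIM24-KO, and without its replicate 1 without DOX 7 rose and 7 fell. Without TRIM33-KO with DOX replicate 2, 13 rose and 17 fell in TRIM33-KO, and without replicate 1 with DOX 8 rose and 19 fell. In line 1, 12 or 13 were called without each of its 4 libraries, and in line 2, 23 without replicate 2 without DOX and 24 without replicate 1 with DOX. The named genes of the 4 pLV2 lines below were called without each library in turn. Snai1, a TGF-beta target that represses epithelial genes, rose with DOX by 3.97 ± 0.27 in line 2, 3.84 ± 0.26 in TRIM33-KO, 2.88 ± 0.21 in TRIM24-KO, 2.38 ± 0.46 in DUXBL-KO and 1.92 ± 0.23 in line 1. Thbs1, whose product activates latent TGF-beta, rose in the 4 pLV2 lines by 2.19 to 3.64. Among those that rose with the smallest p were also Fbn1 in line 1 (1.30), Msx1 in line 2 (3.52), Ppm1a in TRIM24-KO (1.00) and Hgs in TRIM33-KO (0.58). Inhbb, which encodes an activin subunit, fell by 1.08 ± 0.16 in line 2, 1.15 ± 0.16 in TRIM24-KO and 1.54 ± 0.18 in TRIM33-KO. The targets Bhlhe40 (-1.72 in line 2 and -2.35 in TRIM33-KO) and Sik1 (-0.35 in line 1, -0.51 in TRIM24-KO and -0.60 in TRIM33-KO) also fell. Eomes (-0.90) and Klf11 (-0.56) fell in line 1, Klf10 (-0.36) in line 2 and Tbx3 (-0.54) in TRIM24-KO. In DUXBL-KO the co-receptor gene Eng (-1.11) and Cdkn1a (-0.67) fell, and the calls there of Snai1 and Cdkn1a were lost without each of the 4 libraries in turn and that of Eng without 3.

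In TRIM24-KO against WT 39 of the 104 were higher and 23 lower without DOX (59.6% called, against 43.4% of all genes), and 46 and 19 with DOX (62.5% against 40.8%). Myc, which TGF-beta signals are known to repress in many cells, was higher by 2.10 ± 0.10 without DOX and 2.62 ± 0.11 with DOX. Ltbp4, a carrier of latent TGF-beta, was higher by 1.27 ± 0.06 and 1.32 ± 0.06, and Cdkn1a by 1.36 ± 0.09 and 1.65 ± 0.09. Fn1 was lower, at -1.26 ± 0.07 and -1.21 ± 0.07, as were Prdm14 (-1.13 and -2.03), Usp9x without DOX (-0.63) and Tbx3 with DOX (-1.02). In TRIM33-KO against WT 9 were higher and 26 lower without DOX, and 8 and 27 with DOX (33.7% called in each, against 23.9% and 26.8% of all genes). Without DOX, 12 and 18 were called without TRIM33-KO replicates 2 and 1, 23 without either line 1 library and 22 without line 2 replicate 2, and with DOX 19 without TRIM33-KO replicate 2. Strap (0.55 and 0.50) and Sptbn1 (0.48 and 0.45) were higher and Sik1 (-0.46 and -0.68) and Tbx3 (-0.45 and -0.74) lower, and Trim24 and Trim33 are on the list as well. Line 2 against line 1 gave 16 higher and 42 lower without DOX (55.8% called, against 38.3% of all genes) and 14 and 41 with DOX (52.9% against 40.1%), and 37 were called without DOX without line 2 replicate 1. Strap (0.77) and Sptbn1 (0.59) were higher and Ltbp4 (-0.88), Nedd4l (-1.04) and Tbx3 (-0.83) lower in line 2 without DOX. These values stand beside those of TRIM33-KO, with which they share the WT libraries. The TRIM24-KO interaction called 3 upward, Ppm1a (0.92 ± 0.13), Sp1 (0.39 ± 0.08) and Tob1 (0.52 ± 0.11), and Prdm14 (-0.90 ± 0.18) downward, with 0 to 3 called without single libraries and 2 without TRIM24-KO with DOX replicate 2. For the TRIM33-KO interaction edgeR called 0 of these genes, 13 had an unadjusted p under 0.05 and DESeq2 called 2. For the DUXBL-KO interaction all 3 counts were 0. For DUXBL-KO against WT edgeR called 0 in both conditions, 10 without and 15 with DOX had an unadjusted p under 0.05, and DESeq2 called 1 in each.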

How the data were processed

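RNA-seq of 24 libraries was used, all of them deposited as whole-number counts per gene and repeat subfamily, per the file headers. Per the submitters' processing notes the tools included bcl2fastq 2.20.0, cutadapt 1.18 and STAR 2.7.6a, with build mm10. The counting tool, its annotation, its use of strand and its treatment of reads matching several places are not given in the sources used here. Reads were paired, 75 bp, from a directional kit after rRNA depletion, per the labels' protocols.

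Of 55487 gene identifiers, 54435 matched GENCODE M21 with their version, 792 without it and 260 did not match. Groups came from the titles. Each of the 2 sets had its own fit with edgeR 4.0.16 in R 4.3.3 (TMM, filterByExpr by group, glmQLFit and glmQLFTest, 1 mean per group, 2-sided), on 18060 (plain) and 18079 (pLV2) genes. Library sizes and tests used gene rows, without the repeats. Benjamini-Hochberg adjustment ran over all genes within each of 17 comparisons, at a threshold of 0.05. The standard error was the log2 fold change over the root of F. CPM values use effective library sizes. The reference for TRIM24-KO and TRIM33-KO was the mean of WT pLV2 lines 1 and 2. The fit was tested on simulated data.

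Alternatives were RLE factors, no filter, a replicate block, only the groups compared, DESeq2 1.42.0, each WT line alone and leaving out each library. Every called member is named, and of the other pathway genes up to 3 rising and 3 falling with the smallest p per comparison. The members and lists were chosen with earlier results of these data known. Counting intervals are not given. Spread is shown as library values or a standard error for many values, and not for all of them.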

Additional observations from a re-analysis of the deposited data

Results flagged for a closer look

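3 differences in the DOX effect between a knockout line and the mean of both WT pLV2 lines passed edgeR's interaction test (adjusted p under 0.05). The DOX effect on Skil in TRIM33-KO was more negative (-0.52 ± 0.10 on the log2 scale, adjusted p = 0.0258), and Skil was lower with DOX in both libraries of each of the 3 lines. It was not called against WT pLV2 line 2 alone (adjusted p = 0.988) and was lost without 7 of 12 libraries in turn. The DOX effect on Skil in the libraries labelled TRIM24-KO was less negative (0.50 ± 0.10, adjusted p = 0.0359). That call was kept under 6 of 19 alternatives, and was lost against WT pLV2 line 1 alone (0.32, adjusted p = 0.491) and without 10 of 12 libraries in turn. The DOX effect on Id3 in the libraries labelled TRIM24-KO was larger (1.38 ± 0.20, adjusted p = 0.0056), with both libraries with DOX above both without DOX in each of the 3 lines.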

How the results depend on the processing

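Of 150 member calls over the comparisons, 78 were kept under every alternative run. Over 1648 pairs of call and alternative, 1416 kept direction and call, 231 lost the call and 1 reversed. The reversal was Smurf2 in TRIM24-KO against WT without DOX, at -0.25 in the main comparison and 0.021 with WT pLV2 line 1 alone as reference. Counts of called members that left the 1.5-fold range were as follows. With RLE factors there were 7 for DOX in TRIM24-KO and 1 for the TRIM24-KO interaction. With no filter on low counts there were 2 for DOX in WT, 2 for DOX in DUXBL-KO, 3 and 4 for DUXBL-KO against WT without and with DOX, and 4 for the TRIM33-KO interaction. With only the groups compared there were 0 for DOX in DUXBL-KO, 17 and 7 for DOX in WT pLV2 lines 1 and 2, and 1 for the TRIM24-KO interaction. With line 1 alone there were 20 for TRIM33-KO against WT without DOX, 3 for the TRIM33-KO interaction and 1 for the TRIM24-KO interaction. With line 2 alone there were 0 and 3 for TRIM33-KO against WT without and with DOX and 0 for its interaction. With DESeq2 there were 3 for DOX in DUXBL-KO and 8 for DOX in line 2. The cause of these changes was not tested, apart from the fewer libraries that a smaller fit holds.

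A replicate block gave 1 call for DOX in WT and 6 for DOX in DUXBL-KO, and left the other counts within 1.5 times. The labels do not say that a number marks a shared culture, and each group has 2 numbers, so the fit without the block was kept as the main one. The p-values of single members given above for the plain set are those of that fit and ignore any pairing by number. The correlation of same-numbered deviations from the group means ran from 0.357 to 0.803 over 6 pairs of plain groups and from -0.128 to 0.422 over 28 pairs of pLV2 groups, so same-numbered plain libraries deviated together. Leaving out 1 library at a time gave 0 to 1 called members for DOX in DUXBL-KO, 5 to 7 in line 1, 7 to 14 in line 2, 2 to 6 in TRIM24-KO and 9 to 11 in TRIM33-KO. It gave 9 to 14 and 10 to 15 for TRIM33-KO against WT, 17 to 21 and 18 to 20 for TRIM24-KO, 13 to 15 and 16 to 20 for line 2 against line 1, 0 to 1 for the TRIM33-KO interaction and 0 to 2 for that of TRIM24-KO. RLE factors moved the share of higher genes among all calls from 47.6% to 59.6% for DOX in line 2, from 45.1% to 56.7% for DOX in TRIM33-KO, from 81% to 64.4% for the TRIM24-KO interaction and from 0% to 12.5% for DUXBL-KO against WT without DOX. The median of all genes moved by at most 0.071. Depth limits Nog, Smad9, Tgfb2 and Tgfbr2, and with 2 libraries a group the spread is estimated over all groups of a set.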
